A study of Homo sapiens with 6 samples.

Results

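R-loop peaks at the 3′ ends of protein-coding genes made up 667 of the 10231 peaks found in untreated HEK293T cells (6.52%, 95% interval 6.06% to 7.01%) and 668 of the 11085 peaks found in N2-heptynyl-dG-treated cells (6.03%, 5.60% to 6.48%). A peak was counted here when its midpoint fell between 100 bp upstream and 1000 bp downstream of the end of a coding gene record of GENCODE release 44 mapped to GRCh37, and outside the region from 1000 bp upstream to 100 bp downstream of every annotated transcript start. The second condition removed 263 untreated and 283 treated peaks that would otherwise have counted. Peaks on the strand of the gene are called sense (600 untreated, 595 treated), and peaks on the other strand antisense (67 and 73). Sense peaks that also lay in the window of an opposite-strand end, 23 untreated and 24 treated, were counted as sense. A 3′ end is called convergent when a coding gene on the other strand runs toward it and ends within 5 kb, and lone otherwise.

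The peaks came from spKAS-seq, which uses N3-kethoxal to tag unpaired guanines, including those of the DNA strand that an R-loop leaves single, and keeps the strand of the reads. HEK293T cells, a human embryonic kidney line of wild-type genotype, received no modified nucleoside or 10 μM N2-heptynyl-dG, an alkylated deoxyguanosine that cells can build into DNA, for 3 h, and all were then given 5 mM N3-kethoxal for 10 min. The labels hold 2 samples of each condition and 2 inputs of untreated cells, but there is 1 peak list per condition, attached to replicate 1 of each, and per the methods both replicates were used to identify R-loops. No value below therefore has a spread between replicates, no test between conditions was possible, and the intervals are 95% Wilson intervals that cover counting error only.

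At the end of a coding gene, the polyadenylation signal in the nascent RNA directs cleavage a short way downstream, while RNA polymerase II continues past that site until it is released. R-loops downstream of the signal, often over G-rich pause sites, have been linked to pausing of the polymerase and to termination, and the exonuclease XRN2 degrades the RNA that remains after cleavage. Replication-dependent histone genes differ in that their messages end in a conserved stem-loop and carry no poly(A) tail.

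The sequences at these ends show both kinds of gene. The following 30-base stretches, all on the gene strand of GRCh37, lie at the ends of genes with sense peaks, with the polyadenylation signal AATAAA in capitals. PPP2R1A lies at chr19:52732741-52732770, MRPL53 at chr2:74699109-74699138 and EIF3A at chr10:120793182-120793211.
PPP2R1A: AATAAAgatttagtgccaggccttgactcc
MRPL53: aaAATAAAgtttaaaaccctgctaccacaa
EIF3A: ttggtttAATAAAtcaaatctatgacaaaa

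AATAAA was present on the gene strand in the last 50 bases of 538 of the 826 gene records with a sense peak in either list (65.1%, 61.8% to 68.3%) and of 11256 of the 19350 records without (58.2%, 57.5% to 58.9%).

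The histone genes with a sense peak end in the histone stem-loop, shown in capitals for H1-2 (chr6:26055965-26055994), H3C14 (chr1:149812257-149812286), H3C15 (chr1:149824660-149824689), H4C3 (chr6:26104538-26104567) and H4C5 (chr6:26205222-26205251). H3C14 and H3C15 have the same 30 bases here, and reads from such near-identical copies may be split between them by the alignment.
H1-2: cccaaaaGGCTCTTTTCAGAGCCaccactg
H3C14: tccaaaaGGCTCTTTTCAGAGCCacccaca
H3C15: tccaaaaGGCTCTTTTCAGAGCCacccaca
H4C3: acccaaaGGCCCTTTTCAGGGCCgctcaca
H4C5: aatcaaaGGCCCTTTTCAGGGCCgcccaca

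The stem-loop, searched by its consensus on the gene strand from 80 bases before to 20 bases after the record end, was found at all 13 histone genes with a sense peak in either list, at 48 of the 66 listed replication histone genes, and at 49 of 20176 coding records in all (0.243%).

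Beyond the end, the DNA under the peaks holds runs of G on the gene strand. The next stretches are, for each gene, the 120 bases downstream of the record end, inside the peak and outside every annotated exon, with the most bases in runs of 3 or more G, which are in capitals. They were picked for their G runs and so show the richest stretch of each peak, not its average. ACTB (chr7:5565410-5565529), CDC42EP1 (chr22:37967085-37967204) and MEX3A (chr1:156041684-156041803) had overlapping peaks in both lists, although the MEX3A stretch lies only inside the treated peak, PPP2R1A (chr19:52732823-52732942) only in the untreated list and RAB43 (chr3:128806141-128806260) only in the treated list.
ACTB: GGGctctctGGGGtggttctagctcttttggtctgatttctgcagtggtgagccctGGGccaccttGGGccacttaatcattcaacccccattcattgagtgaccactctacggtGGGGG
CDC42EP1: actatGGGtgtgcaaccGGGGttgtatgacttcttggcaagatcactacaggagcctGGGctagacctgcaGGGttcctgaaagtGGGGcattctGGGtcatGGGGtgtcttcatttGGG
MEX3A: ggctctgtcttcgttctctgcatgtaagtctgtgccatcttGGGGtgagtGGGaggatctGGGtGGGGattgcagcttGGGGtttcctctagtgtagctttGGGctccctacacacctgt
PPP2R1A: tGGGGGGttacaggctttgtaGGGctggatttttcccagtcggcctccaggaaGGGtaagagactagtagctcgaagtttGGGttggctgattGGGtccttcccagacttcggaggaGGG
RAB43: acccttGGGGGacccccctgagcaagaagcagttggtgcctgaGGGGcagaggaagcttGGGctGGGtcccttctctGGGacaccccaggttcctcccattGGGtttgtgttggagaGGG

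The median number of such G runs on the peak strand was 16 per kb at 3′ ends in both lists, against 18 (untreated) and 18.7 (treated) per kb over all peaks.

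Sense peaks were most frequent not at the 3′ end itself but downstream of it. In untreated cells, 109 midpoints of same-strand peaks lay in the last 500 bp before the end, 168 in the first 500 bp after it and 402 in the next 500 bp. The count reached 568 between 1000 and 1500 bp downstream, just beyond the limit set here, and fell to 249 between 2000 and 2500 bp and to 13 between 9500 and 10000 bp. The treated list followed the same course, with 94, 173, 393, 533, 260 and 21 midpoints in those bins. The 1000-bp limit therefore cuts through the rising side of this distribution. In the 100 bp just inside the limit there were 97 untreated and 105 treated midpoints, and in the 100 bp just outside it 113 and 91.

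**Figure D1:**
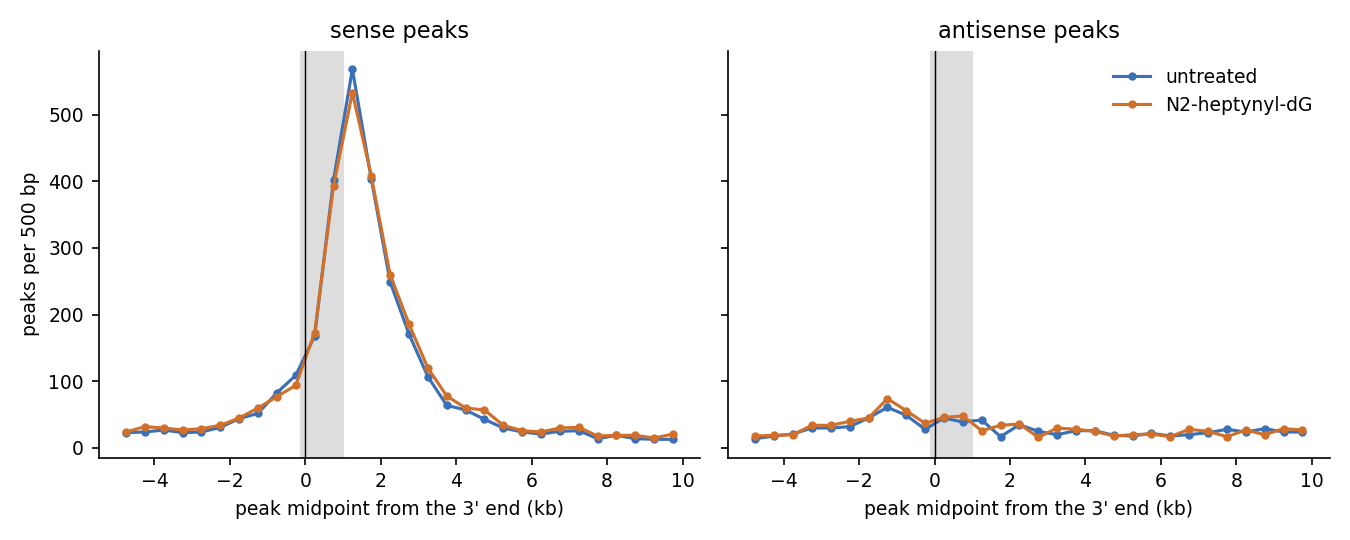
Number of peak midpoints per 500 bp (y axis) by distance from the 3′ end of coding gene records (x axis, kb, downstream positive), for peaks on the gene strand (left) and on the other strand (right) in the untreated (blue) and N2-heptynyl-dG (orange) lists, start regions left out. The gray band marks the window from 100 bp upstream to 1000 bp downstream, and sense peaks reach 568 and 533 per bin between 1000 and 1500 bp.

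Within the window, the median midpoint of sense peaks was 660.5 bp downstream of the end in untreated cells (quartiles 436 and 854.25) and 662 bp in treated cells (378.5 and 847). Although the midpoints lay mostly downstream, many peaks were wide enough to reach back into the gene. The end itself was covered by 242 of 600 untreated sense peaks (40.3%, 36.5% to 44.3%) and 232 of 595 treated ones (39.0%, 35.2% to 43.0%), and 358 and 363 began wholly downstream of it. More than 1000 bp downstream was reached by 416 untreated and 407 treated sense peaks.

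The peaks at 3′ ends were wider than those at promoters. Their median width was 1000 bp in both lists (quartiles 750 and 1500), against 750 bp over all peaks and 500 bp at promoters. The narrowest width, 500 bp, was found in 17.8% of the 3′ end peaks without treatment and 18% with it, and in 53.9% and 53.8% of promoter peaks. The same-strand peaks 1 to 5 kb downstream of coding ends were as wide, with medians of 1250 bp (untreated) and 1000 bp (treated). The widest sense peak at a lone end of either list lay at ID3, an inhibitor of basic helix-loop-helix transcription factors, with 4500 bp in the untreated list. Its midpoint lay 521 bp downstream of the end, so the peak also reached far upstream of the end. ID3 is named for its width and lies outside the rule for named genes.

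Of the 20176 coding gene records, 600 (2.97%) had a sense peak at the 3′ end in untreated cells and 594 (2.94%) in treated cells, 368 of them in both lists and 826 in either. The midpoint also lay inside another coding gene record, of either strand, for 118 of 600 untreated (19.7%) and 133 of 595 treated sense peaks (22.4%). For these, position alone does not assign the peak to the 3′ end. A gene present in 1 list only did not always lack an R-loop in the other. Of the 232 genes found only in the untreated list, 107 had a peak that overlapped a treated peak not counted at that end, and 125 had no overlapping treated peak. The corresponding numbers for the 226 genes of the treated list only were 109 and 117.

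ACTB, the gene of cytoplasmic beta-actin and a standard example of an R-loop at a terminator, had a sense peak in both lists. The untreated peak lay at chr7:5564501-5566500 on the minus strand and the treated peak at chr7:5564251-5566500, so that they shared the upstream border and the treated peak reached 250 bp further. Relative to the end of the gene record the peak ran from -460 to 1539 bp in untreated and to 1789 bp in treated cells. The canonical transcript of ACTB ends 739 bp before the record does, and from that end the midpoints lay 1279 and 1404 bp downstream. ENSA, GEMIN7 and BRCA1, for which R-loops at the 3′ end are also known, had no sense peak counted here in either list. That count leaves out antisense peaks, peaks in start regions and midpoints more than 1000 bp downstream, where sense peaks were most frequent. It does not show that these genes lacked an R-loop near the end.

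The actin and tubulin genes held 4 of 36 genes with a sense peak in each list (11.1%, 4.41% to 25.3%), with 2 genes in both. At ACTG1, the gene of cytoplasmic gamma-actin, the untreated peak ran from -991 to 2508 bp and was 3500 bp wide. The treated peak there ran from -491 to 2758 bp, and its midpoint fell beyond the window. The tubulin genes also differed between the lists. At TUBB the downstream border lay at 1185 bp without and 685 bp with N2-heptynyl-dG, and the upstream border at -564 bp in both. At TUBA1C the treated peak (-837 to 662 bp) was 250 bp narrower than the untreated one, which began at -1087 bp. At TUBB4B the untreated peak of 3750 bp began at -2632 bp and the treated one of 2500 bp at -1132 bp. The untreated peak at TUBB4B also covered the start of the gene record. At both TUBA1C and TUBB4B the midpoint of the untreated peak lay outside the window. TUBB2B had a peak of 750 bp in the untreated list only. The canonical transcripts of ACTG1 and TUBB2B end 558 and 953 bp before their records do. From those ends the untreated midpoints lay 1317 and 1636 bp downstream, beyond the 1000-bp limit.

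Genes of the cleavage and termination machinery had sense peaks at the share of all coding genes. Of 34 listed genes, which include the cleavage and polyadenylation factors and XRN2, 1 had a sense peak in each list. This was RBBP6, a subunit of the cleavage machinery, with an untreated peak from 67 to 1316 bp downstream (chr16:24584251-24585500) and a treated peak from 317 to 1316 bp (chr16:24584501-24585500). The share of the list was 2.94% (0.521% to 14.9%).

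The replication-dependent histone genes, which encode the histones made in S phase, had the highest share of the lists examined with over 10 genes. Sense peaks were found at 13 of 66 genes in untreated cells (19.7%, 11.9% to 30.8%) and at 12 in treated cells (18.2%, 10.7% to 29.1%), and all 12 treated genes were among the 13. H3C7 had its peak, of 1750 bp, in the untreated list only. Each of these peaks, 1250 to 2000 bp wide, covered the 3′ end and also the start of the gene record, with midpoints between -76 and 305 bp. At these short genes the position of the midpoint near the 3′ end therefore does not separate an R-loop of the terminator from one of the whole gene. Over all genes, 14 of 600 untreated and 13 of 595 treated sense peaks covered the start of their own record, and 13 and 12 of these were the histone peaks. Borders were the same in both lists at 6 of the 12 genes, as at H1-2 (chr6:26055001-26057000, minus strand) and H2AC16 (chr6:27832751-27834250, plus strand). The other 6 differed by at least 250 bp at 1 border or both, as at H4C3, where the peak had a width of 1250 bp without and 1750 bp with N2-heptynyl-dG.

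The genes of cytosolic ribosomal proteins came next, with 15 of 87 in untreated (17.2%, 10.7% to 26.5%) and 13 in treated cells (14.9%, 8.95% to 23.9%), 12 in both. Their peaks were wide, with a median of 2000 bp in both lists, and all 15 and 13 overlapped a peak of the other list. Among them, named after their values were seen, RPL35A (chr3:197683111-197685360) and RPL38 (chr17:72206503-72209002) had the same borders in both lists. Splicing factors had 9 and 5 of 57 genes, mitochondrial ribosomal proteins 9 and 6 of 78, genes with EIF or EEF symbols, mostly translation factors, 7 and 5 of 69, and heat shock proteins with their DNAJ partners 5 and 6 of 72. Zinc finger genes of the ZNF series had 20 and 17 of 508 (3.94% and 3.35%), near the share of all coding genes. No expression values were analysed here, and how far these shares go with transcript level was not tested.

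**Figure D2:**
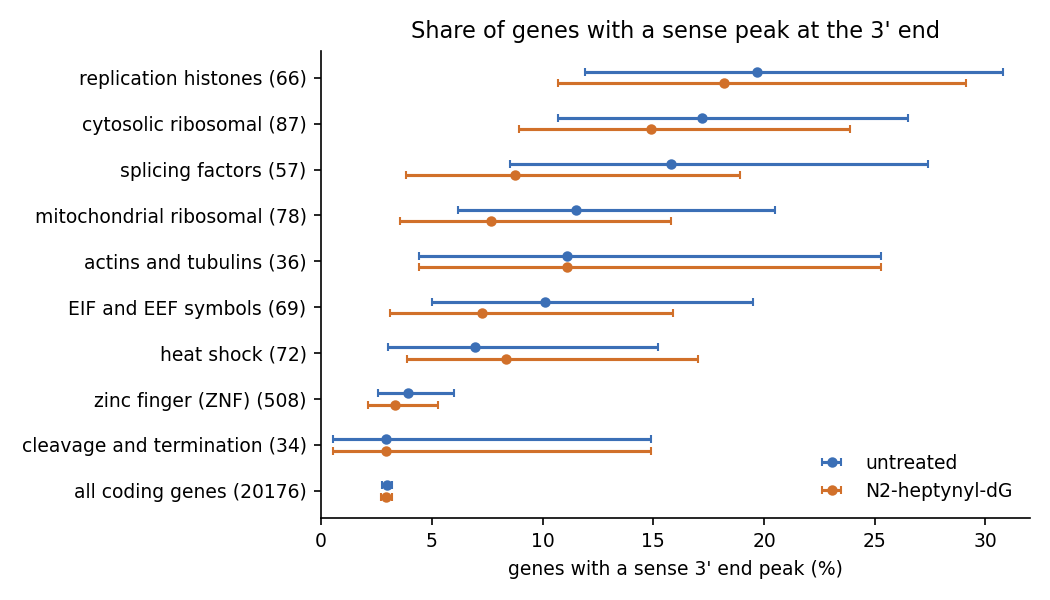
Share of genes with a sense peak at the 3′ end (x axis, percent) for each gene list of over 10 genes (number of genes in parentheses) in the untreated (blue) and N2-heptynyl-dG (orange) lists, with 95% Wilson intervals as bars. Replication histones (19.7% and 18.2%) and cytosolic ribosomal proteins (17.2% and 14.9%) lie above all coding genes (2.97% and 2.94%).

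The share of 3′ end peaks found in both lists was nearly the same in either direction. Of the 667 untreated peaks at 3′ ends, 525 overlapped a treated peak on the same strand by at least 1 bp (78.7%, 75.4% to 81.6%), against 74.6% of all untreated peaks. Of the 668 treated ones, 527 overlapped an untreated peak (78.9%, 75.6% to 81.8%), against 69.2% of all treated peaks. At promoters the share was 78.5% (77.3% to 79.6%) of untreated and 71.2% (70.0% to 72.3%) of treated peaks, and in coding gene bodies 65% and 60%. The peaks 1 to 5 kb downstream were close to those at 3′ ends, with 75.2% and 74.8%. The treated list held more promoter peaks, 5756 against 5129, and a lower share of them was shared, whereas at 3′ ends both the number and the share were nearly equal. The remaining 142 untreated and 141 treated peaks at 3′ ends, 21.3% and 21.1%, overlapped no same-strand peak of the other list, against 25.4% and 30.8% of all peaks. Of these, 18 untreated (12.7%) and 31 treated (22%) had a same-strand peak of the other list within 1000 bp. Sense and antisense peaks were shared in 78.8% and 77.6% of untreated and 79.8% and 71.2% of treated cases, with intervals that overlap.

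Sharing went with width. In untreated cells, 58.8% (49.8% to 67.3%) of the 3′ end peaks of 500 bp were shared, 81.8% of those of 1000 bp and 88 of the 89 peaks of 2000 bp or more. In treated cells these shares were 44.2% (35.6% to 53.1%), 82.6% and 82 of 82. Within a width class the peaks at 3′ ends did not stand above the rest throughout. At 750 bp, 55.8% (46.6% to 64.6%) of untreated 3′ end peaks were shared, against 74.9% of all untreated peaks and 86.1% of promoter peaks of that width.

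**Figure D3:**
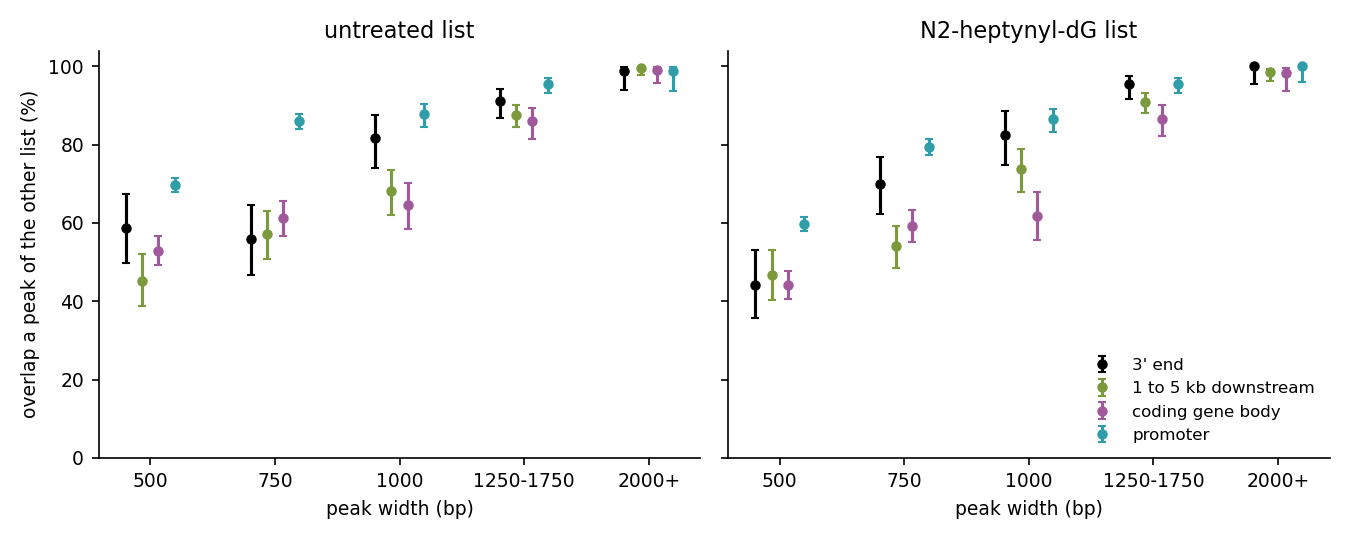
Share of peaks that overlap a same-strand peak of the other list (y axis, percent) by peak width (x axis, bp) for peaks at 3′ ends (black), 1 to 5 kb downstream (green), in coding gene bodies (purple) and at promoters (cyan), with 95% Wilson intervals as bars. The share at 3′ ends rises from 58.8% and 44.2% at 500 bp to 98.9% and 100% at 2000 bp or more in the untreated (left) and N2-heptynyl-dG (right) lists.

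Even the widest peaks found in 1 list only were narrower than the widest shared ones. At lone ends, the untreated-only peaks of largest width were those of PPP2R1A, the scaffold subunit of protein phosphatase 2A, with 2000 bp (-89 to 1910 bp), and FNDC10 with 1750 bp. The treated-only ones were those of VPS26A, a subunit of the retromer that sorts cargo from endosomes, with 1750 bp (-519 to 1230 bp), and RAB43, a small GTPase, with 1500 bp. At convergent ends, YRDC (1500 bp) and NDUFC2, a subunit of respiratory complex I (1250 bp), had peaks only in untreated cells, and EIF3A, a subunit of translation initiation factor 3 (1250 bp), and VPS37C, a subunit of the ESCRT-I complex (1000 bp), only in treated cells. The median width of peaks found in 1 list was 750 bp in both lists, and that of shared peaks 1250 bp.

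Among shared peaks, those widest in the treated list showed that an overlap does not mean the same extent. The peak at CDC42EP1, an effector of the small GTPase CDC42, was the same in both lists (chr22:37964761-37967510, plus strand). At MEX3A, an RNA-binding protein, the untreated peak ran from 225 to 1974 bp and the treated one from -1275 to 1224 bp. At MRPL53, a mitochondrial ribosomal protein, the peak grew from 2000 to 3500 bp with the same upstream border at -1208 bp, beyond the start of this short gene, and it also covered part of CCDC142 on the same strand. At PAGR1 the untreated peak of 1000 bp ended 310 bp before the end of the record, and the treated peak of 3500 bp, with the same upstream border, reached 2190 bp beyond it and covered part of MVP on the same strand.

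**Figure D4:**
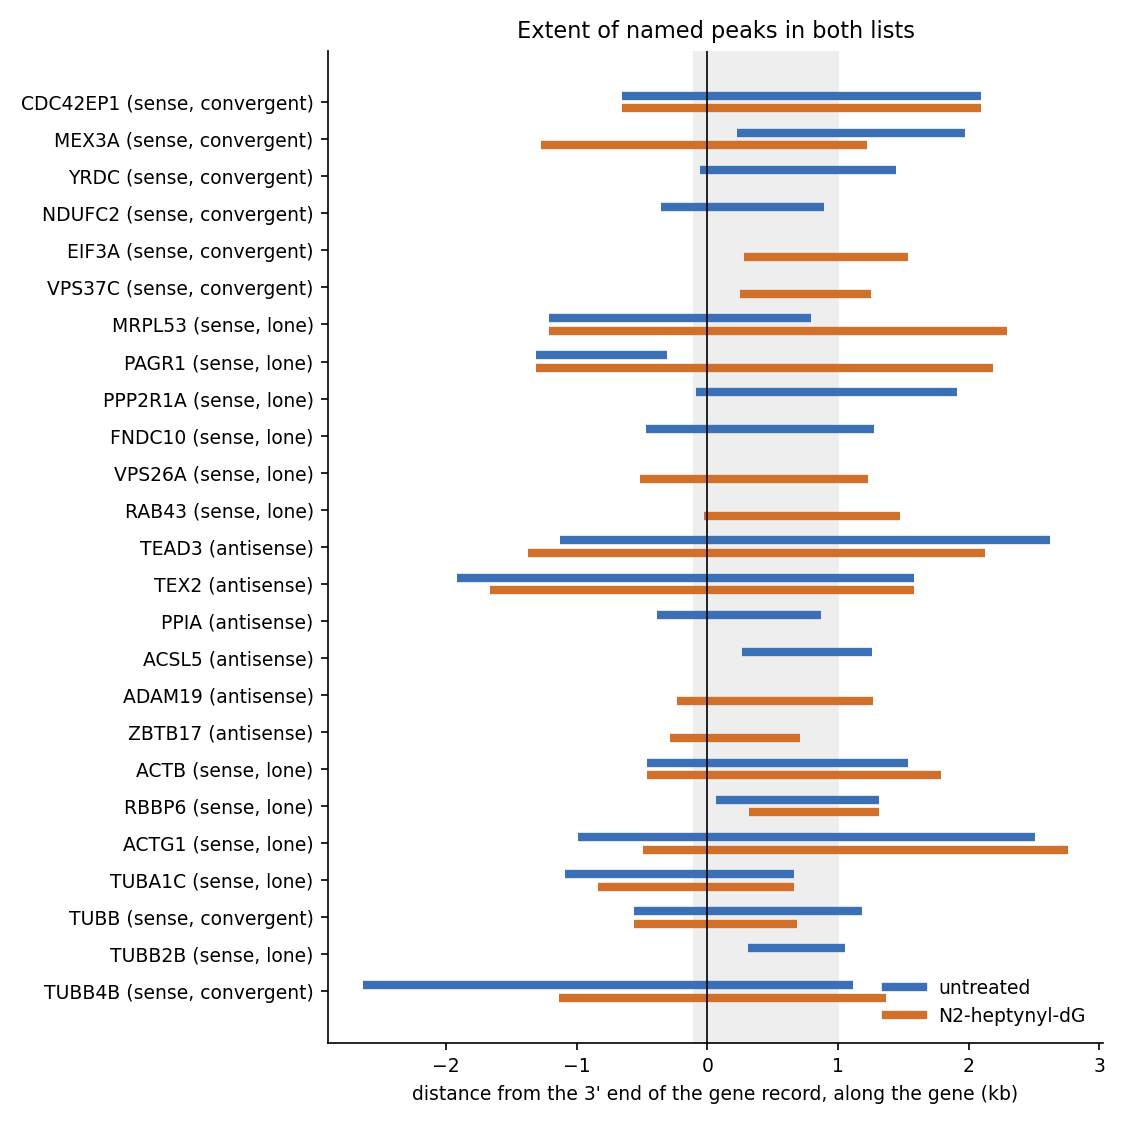
Extent of the named peaks other than histone genes relative to the 3′ end of the gene record (x axis, kb along the gene, 0 at the end), in the untreated (blue) and N2-heptynyl-dG (orange) lists, with the window for midpoints in gray. CDC42EP1 has the same extent in both lists, PAGR1 reaches 2190 bp beyond the end only in the treated list, and genes with a single bar were found in 1 list.

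Borders lay on a 250-bp grid and were compared in pairs of peaks that overlapped only each other. The upstream border receded more often than it extended however the pairs were chosen, but by little when the treated peak chose them. The direction at the downstream border and the midpoint depended on which list chose the pairs. In the 450 pairs whose untreated peak was a sense peak at a 3′ end, the upstream border receded in 148 and extended in 84 after treatment, the downstream border extended in 127 and receded in 89, and the midpoint moved downstream by 46.9 bp on average. In the 448 pairs whose treated peak was such a peak, the upstream border receded in 119 and extended in 109, the downstream border extended in 92 and receded in 123, and the mean midpoint change was -17.9 bp. In the 356 pairs with both peaks in the window it was 5.62 bp, with the upstream border receding in 94 and extending in 72 and the downstream border extending in 74 and receding in 76. The sign of the mean midpoint change followed the choice of pairs, so no direction is read from it. The other choices were added after the data were seen. The treated peak was narrower in more pairs than it was wider under each choice (160 against 126, 167 against 120 and 118 against 92). Smaller widths in the treated list were not particular to 3′ ends. Over whole lists rather than pairs, the mean width was 1200 bp untreated and 1152 bp treated at 3′ ends. It was 891 and 859 bp over all peaks, and 1276 and 1248 bp for peaks 1 to 5 kb downstream. A receding upstream border was not particular to 3′ ends. Over all 7443 pairs it receded in 17.4% and extended in 15.1%, against 32.9% and 18.7% of the 450 pairs. With pairs grouped by the untreated peak, the shares 1 to 5 kb downstream were 29.9% and 24.2%. In coding gene bodies the border extended more often, in 20.6% against 18.1%. Both borders were the same in 123 of the 450 pairs (27.3%), in 34.6% of those with both peaks in the window and in 22.7% of the 542 with either. Among pairs of other kinds the share was 18.3% for peaks 1 to 5 kb downstream, 36% in coding gene bodies and 56.5% at promoters, and 44.3% over all 7443 pairs.

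**Figure D5:**
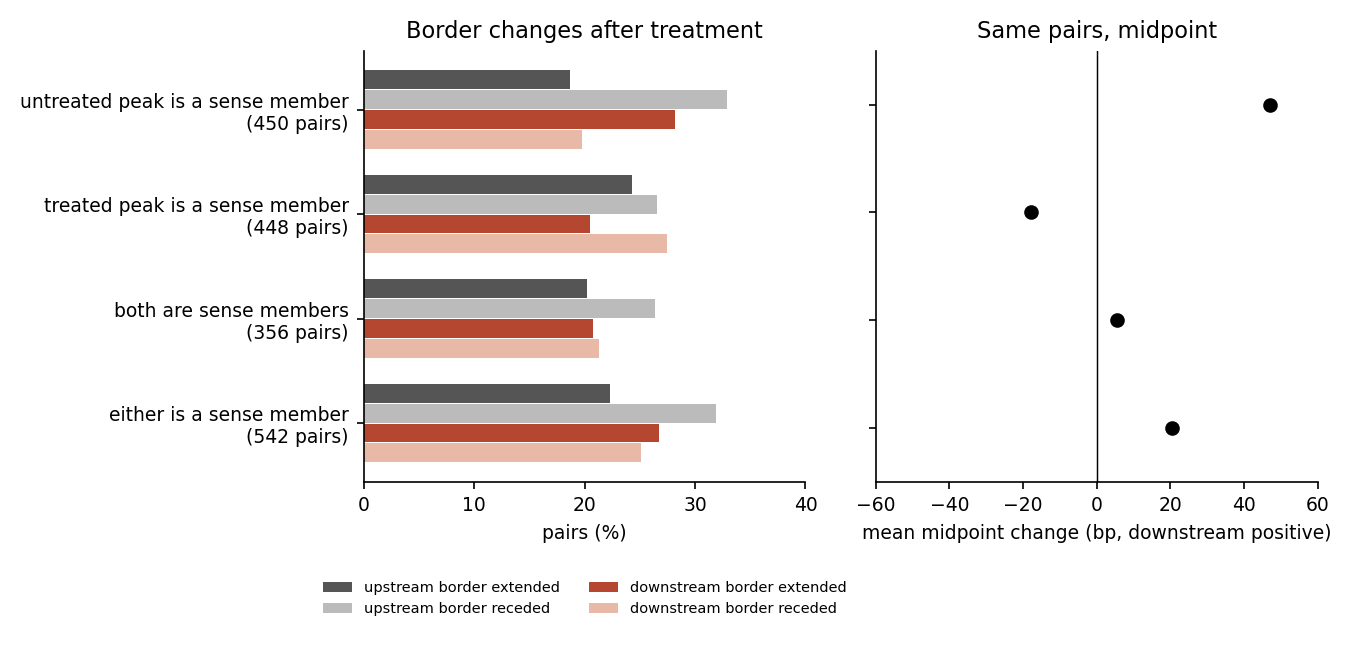
Share of pairs of overlapping peaks (left x axis, percent) whose upstream or downstream border extended or receded in the N2-heptynyl-dG list, and mean change of the midpoint (right x axis, bp, downstream positive), for 4 ways of choosing the pairs (y axis). The mean change is 46.9 bp when the untreated peak lies in the 3′ window, -17.9 bp when the treated peak does and 5.62 bp when both do.

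Convergent ends carried sense peaks slightly less often than lone ends in untreated cells, with intervals that just met, and about as often in treated cells. Of 4146 convergent ends, 99 had a sense peak in untreated cells (2.39%, 1.97% to 2.90%) and 115 in treated cells (2.77%, 2.32% to 3.32%), and of 16030 lone ends 501 (3.13%, 2.87% to 3.41%) and 479 (2.99%, 2.74% to 3.26%). The difference was not tested. Sense peaks at convergent ends were shared in 79.8% and 79.1% of cases and at lone ends in 78.6% and 80.0%. Peaks at convergent ends were of higher GC content, with medians of 54.5% and 55.4% against 49.9% and 50.7% at lone ends. The GC content of the windows themselves differed in the same way, 49.1% at all convergent ends and 43.5% at all lone ends.

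No convergent pair had a sense peak at both ends, among 99 such ends in untreated and 115 in treated cells, which allows a share of up to 3.74% and 3.23% by the Wilson limit. These limits lie above the share of all convergent ends with a sense peak, 2.39% and 2.77%. The absence of such pairs is therefore not read as a trait of convergent ends. Where the ends were apart, the peak reached the record of the partner gene in 30 of 68 untreated and 29 of 75 treated cases, as at CDC42EP1, whose peak covered part of LGALS2 across a gap of 843 bp. No peak at a 3′ end overlapped a peak of the other strand in its own list (0 of 667 and 0 of 668, upper limits 0.573% and 0.572%). Over all peaks such overlaps were rare as well, with 48 overlapping pairs among 10231 untreated peaks (0.469%) and 67 among 11085 treated peaks (0.604%). These are counts of pairs, whereas those at 3′ ends are counts of peaks. The absence at 3′ ends is near these shares. How the peak definition treats signal on both strands is not given in the sources used here, and its part in these zeros was not tested.

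Antisense peaks were found mainly at convergent ends. In untreated cells 43 of 67 lay there (64.2%, 52.2% to 74.6%) and in treated cells 51 of 73 (69.9%, 58.6% to 79.2%), against 20.5% of all coding ends. Most of them could be placed at a coding gene of their own strand. The midpoint lay inside such a gene in 19 untreated and 22 treated cases, and outside any record of its strand but 1 to 5 kb downstream of a coding end of its strand in 30 and 35. A further 3 and 0 lay inside noncoding records only. For 15 and 16 peaks there was neither a gene on their strand nor a coding end within 5 kb upstream. At a convergent end, a coding gene of the peak strand ends within 5 kb by definition. The placement of those antisense peaks was therefore largely fixed in advance.

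The widest shared antisense peak, by treated width, lay at the end of TEAD3, a transcription factor of the Hippo pathway, on the plus strand. It was 3750 bp wide without and 3500 bp wide with N2-heptynyl-dG (treated, chr6:35439251-35442750), and the convergent partner of TEAD3 is RPL10A, a ribosomal protein gene that ends 2812 bp away. The peak at TEX2 (3500 and 3250 bp) covered the noncoding genes SNHG25 and SNORD104, which lie on the strand of the peak. Untreated-only antisense peaks were widest at PPIA (1250 bp) and ACSL5 (1000 bp), the latter inside ZDHHC6, whose record overlaps that of ACSL5. Treated-only ones were widest at ADAM19 (1500 bp) and ZBTB17 (1000 bp). The records of PPIA and ADAM19 end 21447 and 81770 bp beyond the ends of their canonical transcripts, and these peaks lie that much further from the canonical ends.

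Base composition set peaks at 3′ ends apart from those at promoters. Their median GC content was 50.8% in untreated and 51.6% in treated cells, against 60.2% and 61.3% at promoters and 48.2% and 48.9% for the peaks 1 to 5 kb downstream. Among the gene ends, the window of those with a sense peak in either list had a median GC content of 49.2%, against 44.1% for those without, and the genes were shorter, with medians of 15467.5 and 27964 bp. GC skew, the difference of G and C counts over their total, read along the peak strand, was near 0 for sense peaks, with medians of 0.0086 and 0, and it was above 0 in 54% of them without and 49.7% with treatment. The share was lower in the treated list for other peaks as well, with 47.6% and 43.3% at promoters, 53.3% and 48.4% in coding gene bodies and 52.4% and 45.6% for peaks 1 to 5 kb downstream. Antisense peaks had medians of -0.045 and -0.044, and 30.3% (20.6% to 42.2%) and 29.2% (19.9% to 40.5%) were above 0.

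A G-quadruplex motif, 4 runs of at least 3 G with loops of 1 to 7 bases, was found on the peak strand of 14.7% (12.2% to 17.6%) of untreated and 15.0% (12.5% to 17.9%) of treated peaks at 3′ ends, against 18.2% and 19.3% of all peaks and 21.8% and 23.4% at promoters. It was found on the other strand of 18% and 18.6% of them. In the windows of equal length at the gene ends, the motif stood on the gene strand of 16.0% (13.6% to 18.6%) of those with a sense peak and 12.4% (12% to 12.9%) of those without. On the other strand of the same windows the shares were 16.9% (14.5% to 19.7%) and 11.8% (11.3% to 12.2%), so the motif was more frequent on both strands.

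Genes with an R-loop at the 3′ end more often had one at the start. A same-strand peak at a start site of the gene was present for 146 of 600 genes in untreated cells (24.3%, 21.1% to 27.9%) and 144 of 594 in treated cells (24.2%, 21.0% to 27.8%), against 12.9% and 14.6% of all coding genes, which include genes not transcribed in these cells. Most genes with a sense peak at the 3′ end had no peak of the same strand at their start.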

How the data were processed

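spKAS-seq was done on HEK293T cells with and without N2-heptynyl-dG. For the authors' processing, Trim Galore served to trim, Bowtie2 to align against hg19 and Picard to discard duplicate reads. R-loops were then defined from 2 replicates as in earlier work. The deposited lists, 1 per condition, have 4 columns (chromosome, start, end, strand) and no height, score or p-value, so depth per peak is unknown. The peak caller and its threshold are not given in the sources used here.

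Peak midpoints were assigned to the 64486 genes and 254413 transcripts of GENCODE release 44, in its GRCh37 version. The 103 peaks on contigs without annotation could not be members. Peaks masked over more than 50% were left out of base composition. Sequences were read from GRCh37. Shares have 95% Wilson intervals, and no test was run between lists. Other windows, ends, start regions, widths, pair distances and overlaps were tried. Assignment and sharing were tested on 200 simulated peaks, with 0 wrong. Gene lists were made by symbol, so they hold some paralogs and modifying enzymes. Members and gene lists were chosen with earlier results of these data known. Named were the 2 widest peaks of each class (sense convergent, sense lone, antisense) and state (shared, by treated width; untreated only; treated only), ties by chromosome order and start, and every peak at the known terminator, histone, cleavage and actin or tubulin lists. Tools were Python 3.11.15 with scipy 1.17.1, pandas 2.3.3, matplotlib 3.10.9, pysam 0.24.0 and numpy 2.4.6, and samtools 1.23.1.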

Additional observations from a re-analysis of the deposited data

How the results depend on the processing

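Under 16 alternatives, 109 values were recomputed for 13 results, and 80 stayed within the 95% interval of the reported value or, for counts, within 1.5 times. The only reversal was the mean midpoint change of sense pairs, 46.9 bp for pairs chosen by the untreated peak: it was -17.9 bp by the treated peak, 5.62 bp with both peaks in the window and 20.5 bp with either, 3 choices added after the data were seen. No other result could be labelled as reversed. Counts, shares and widths cannot change sign, and the intervals of the median GC skew include 0 in both lists. With ends of all coding transcripts, the sense share was 86.9% (untreated) and 84.3% (treated). A window to 500 bp left 236 and 243 peaks, 83.1% and 82.3% sense, and a window to 2000 bp held 1660 and 1629, 94.9% and 94.5% sense. Any overlap with the window gave 1464 and 1426 peaks, 94.5% and 94.0% sense, 83.2% and 83.0% shared, with a treated median width of 1250 bp, which was also that of peaks of at least 750 bp. Convergent shares of sense peaks, 16.5% and 19.3%, became 8.5% and 9.41% within 1 kb and 23.8% and 26.2% within 10 kb. Reciprocal overlaps of 50% and 90% lowered sharing to 70.3% and 70.1%, and to 22.3% and 22.3%. Starts of coding genes only, no start region left out, sharing on either strand, and autosomes and X only moved none of the values. A stricter peak threshold could not be run, since the lists hold no score, nor could a replicate be left out. No paired analysis was possible because there is 1 list per condition.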

Other observations

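Sense peaks at 3′ ends were unevenly spread over chromosomes. Chromosome 19 had them at 81 of 1480 coding genes in untreated cells (5.47%) and at 71 in treated cells (4.80%), and chromosome 16 at 37 and 32 of 861 (4.30% and 3.72%). Chromosome 11 had them at 24 of 1317 genes in both lists (1.82%), and chromosome 18 at 2 and 4 of 266 (0.752% and 1.5%). The spread of all peaks over chromosomes was not compared.

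The end of the gene record and the end of its canonical transcript differed for 145 of 600 untreated and 138 of 595 treated sense peaks, by over 1000 bp for 25 and 24. A coding gene of the same strand began within 5 kb downstream of 84 of 501 lone ends with a sense peak in untreated cells (16.8%, 13.8% to 20.3%) and of 85 of 479 in treated cells (17.7%, 14.6% to 21.4%), against 13.5% of all lone ends.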
